A study of Homo sapiens with 6 samples.

Results

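The gene set described here holds 43 genes of homologous recombination, the Fanconi anaemia pathway, break signalling and the ATM and ATR checkpoint. Its members were named by symbol, under a rule that uses no measured value although earlier results of these data were known when it was set, and each was found as 1 row among the 60664 Ensembl genes of the count table. RNA was sequenced from U-2 OS, a human osteosarcoma cell line, after transfection with control siRNA (siControl, 3 replicates) or with siRNA against SFPQ (siSFPQ, 3 replicates), both at 30 nM. SFPQ is a nuclear RNA-binding protein of paraspeckles. The only difference between the groups that the labels give is the siRNA, no time after transfection is given in the sources used here, and the knock-down was transient and incomplete in a cancer cell line. The siControl libraries held 46142855, 47119203 and 46830736 counts in all and the siSFPQ libraries 43469321, 45511855 and 45543610. A floor of 3 counts is then worth between 0.0637 and 0.069 CPM (counts per 1000000 counts of a library), a limit that covers counting error only. SFPQ itself had 22338, 23139 and 21753 counts in siControl and 3140, 3863 and 3151 counts in siSFPQ. Every siSFPQ library was far below every siControl library, and the log2 fold change was -2.73 (SE 0.05, adjusted p = 6.33e-30), a fall of the transcript to 0.15 of its siControl level.

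Homologous recombination copies lost sequence from the sister chromatid. The broken end is first trimmed by nucleases, the exposed strand is coated by RPA, and BRCA1, PALB2 and BRCA2 then prepare that strand for pairing with the intact copy, helped by the BCDX2 and CX3 complexes and the RAD54 motor proteins. In the Fanconi pathway a core complex, with UBE2T as its ubiquitin-conjugating enzyme and FANCL as its ligase, ubiquitinates the FANCD2-FANCI clamp at stalled forks and crosslinks. ATM, called to breaks by MRE11-RAD50-NBN, and ATR, called to RPA-coated DNA by ATRIP and activated by TOPBP1, halt the cell cycle through CHEK2 and CHEK1, while MDC1, RNF8, RNF168 and TP53BP1 mark the chromatin around a break. Many of these genes are transcribed most in S and G2 phase.

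Promoter windows are shown for the members with the largest falls, RAD51B and FANCC, and the largest rises, ATR and ATRIP, as the ends of the range in each direction. Each window holds the 250 bases before the start of the MANE Select transcript on GRCh38, written in the direction of transcription, and capitals mark a match to a cell cycle promoter motif on either strand.
RAD51B, chr14:67819529-67819778, plus strand: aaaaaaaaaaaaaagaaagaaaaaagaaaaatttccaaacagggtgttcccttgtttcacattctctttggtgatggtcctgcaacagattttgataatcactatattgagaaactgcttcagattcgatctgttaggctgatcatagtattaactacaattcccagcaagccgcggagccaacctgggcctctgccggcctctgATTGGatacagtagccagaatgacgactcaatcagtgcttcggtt
FANCC, chr9:95317710-95317959, minus strand: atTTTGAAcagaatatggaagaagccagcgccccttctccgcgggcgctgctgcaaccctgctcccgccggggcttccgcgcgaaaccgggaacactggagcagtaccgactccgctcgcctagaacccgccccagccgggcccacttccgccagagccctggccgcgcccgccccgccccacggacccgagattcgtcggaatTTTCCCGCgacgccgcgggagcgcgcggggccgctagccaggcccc
ATR, chr3:142578734-142578983, minus strand: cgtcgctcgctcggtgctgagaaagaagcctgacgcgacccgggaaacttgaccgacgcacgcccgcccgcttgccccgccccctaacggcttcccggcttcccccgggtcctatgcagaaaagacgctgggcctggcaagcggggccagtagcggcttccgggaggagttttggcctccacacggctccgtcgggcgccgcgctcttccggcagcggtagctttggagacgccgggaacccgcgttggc
ATRIP, chr3:48446487-48446736, plus strand: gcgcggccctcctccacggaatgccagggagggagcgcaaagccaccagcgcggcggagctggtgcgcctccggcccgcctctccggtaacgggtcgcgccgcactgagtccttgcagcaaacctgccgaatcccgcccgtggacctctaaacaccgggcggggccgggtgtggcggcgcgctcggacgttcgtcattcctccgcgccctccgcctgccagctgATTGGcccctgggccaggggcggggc
The motifs searched were the E2F motifs TTTCCCGC and TTTGGCGC, the CHR motif TTTGAA and the NF-Y motif CCAAT, which reads ATTGG on the other strand. RAD51B and ATRIP held CCAAT alone, FANCC held TTTGAA and TTTCCCGC, and the ATR window held none of these letters. The RAD51B window was 41.2% G and C, against 71.2% for FANCC, 69.6% for ATR and 73.6% for ATRIP. Over the promoters of all 43 members, CCAAT was found in 19 (44.2%) and TTTGAA in 5 (11.6%), beside 34.4% and 10.1% of 19061 MANE Select promoters. TTTCCCGC was found in 1 member promoter, that of FANCC, and in 1.99% of all promoters, and TTTGGCGC in 0 member promoters and in 0.703% of all. Only these exact letters before the start were searched. Other forms of the motifs and sites at or after the start were not counted, so a promoter without a match may still hold a site.

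All 43 members passed the filter on low counts and had a mean of at least 1 CPM. In siSFPQ, 7 members were higher and 18 were lower at an adjusted p under 0.05, and 18 did not pass the test. Of all 29022 genes tested, 22.4% were higher and 22.1% lower, or 44.6% either way. Of the 12961 protein-coding genes with a mean of at least 1 CPM, 31.4% were higher and 36.5% lower, or 67.8% either way, so the members' 16.3% higher lay below and their 41.9% lower near the share of such genes. Scaling by library size alone in place of TMM gave 10 members higher and 16 lower, so that the share of lower among called members went from 72.0% to 61.5%. The median log2 fold change of the members was -0.09, beside 0.02 over all genes tested and -0.02 over the protein-coding genes. Set against the siControl mean, the members' median log2 ratio was -0.053, 0.036 and 0.003 in the siControl replicates and -0.118, -0.090 and -0.092 in the siSFPQ replicates. The normalized counts did not overlap between the conditions in 29 members (67.4%), 8 upward (18.6%) and 21 downward (48.8%). The same held for 52.3% of all genes tested (26.9% upward, 25.4% downward) and for 72.8% of the protein-coding genes (34.0% upward, 38.9% downward). Only RAD51B and FANCC passed a log2 fold change of -1.5, and 0 members passed 1.5 with edgeR or with DESeq2. Of all genes tested 4.77% were past -1.5 and 5.54% past 1.5, or 10.3% in all, and of the protein-coding genes 4.33% and 1.35%, or 5.68%.

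**Figure D1:**
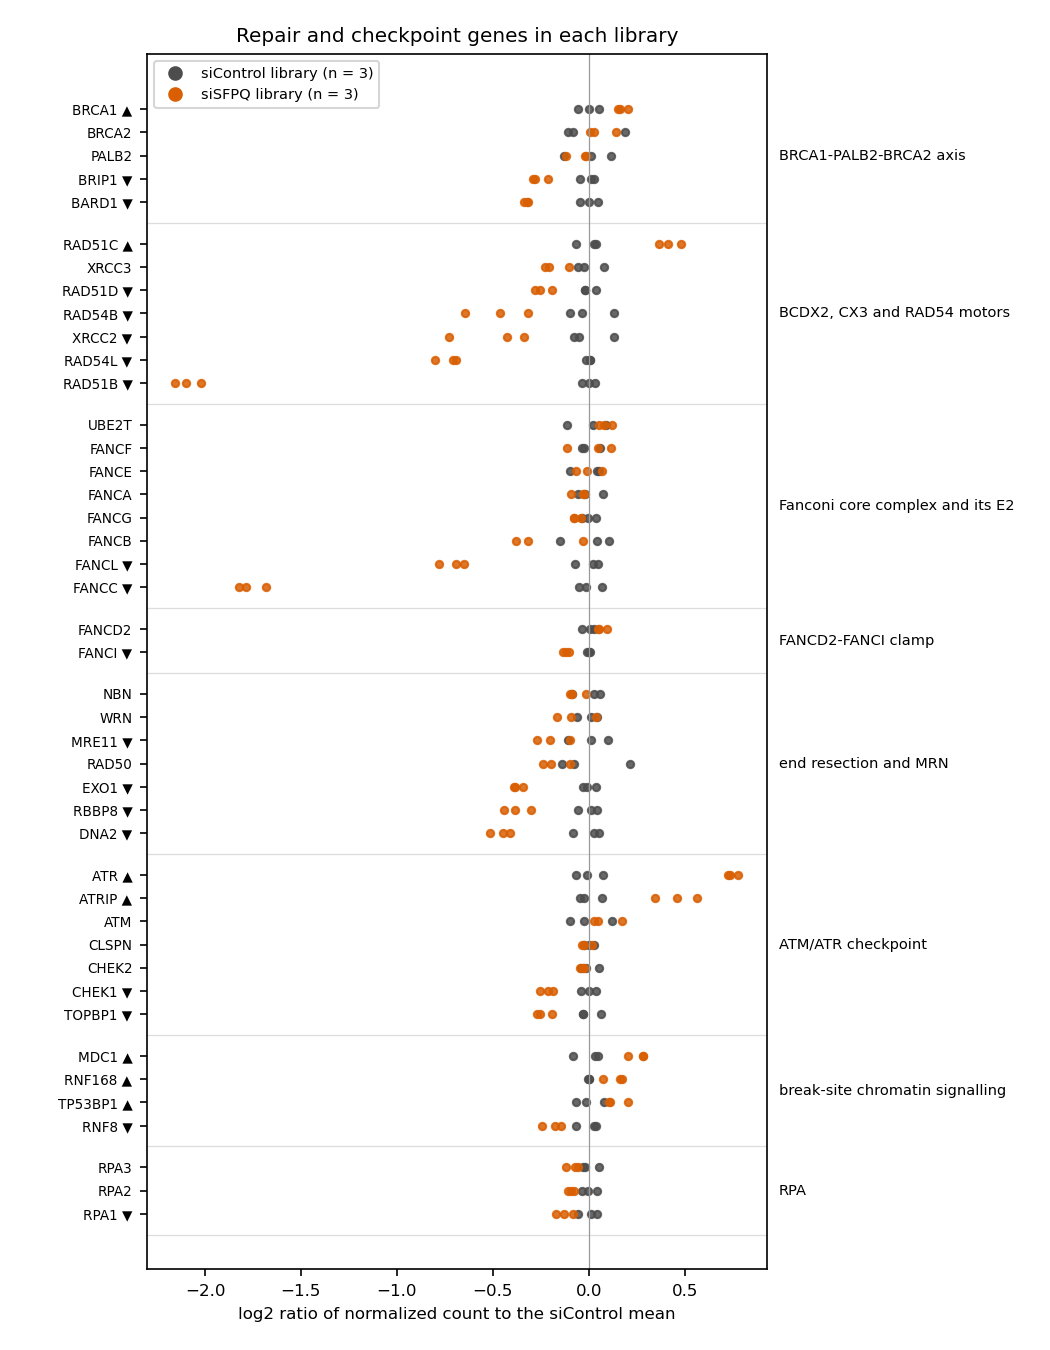
The horizontal axis is the log2 ratio of a member's normalized count to its mean over the 3 siControl libraries, and each point is 1 library (grey siControl, orange siSFPQ). Members are grouped by role and ordered by change within a role, with an arrowhead for an adjusted p under 0.05. RAD51B and FANCC lie near -2.09 and -1.76 and ATR near 0.75, while most other members lie within 0.5 of 0.

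Among the genes of the BRCA1-PALB2-BRCA2 axis, the partners BRCA1 and BARD1 moved in opposite directions. BRCA1 had 4029, 4353 and 4185 counts in siControl and 4522, 4935 and 4766 in siSFPQ, where it was higher by 12.8% (log2 fold change 0.17, SE 0.041, adjusted p = 0.000603). BARD1, which forms a ubiquitin ligase with BRCA1, had 2304, 2466 and 2382 counts in siControl and 1852, 1928 and 1947 in siSFPQ, a log2 fold change of -0.33 (SE 0.047, adjusted p = 5.23e-07). For both genes the siSFPQ libraries lay wholly to one side of the siControl libraries. BRIP1, a helicase bound by BRCA1, had 4601, 4848 and 4776 counts in siControl and 3787, 4187 and 3931 in siSFPQ (log2 fold change -0.26, SE 0.041, adjusted p = 1.8e-06), again without overlap. PALB2, the bridge between BRCA1 and BRCA2, and BRCA2 did not pass the test. Their log2 fold changes were -0.05 (95% interval -0.18 to 0.08) and 0.05 (95% interval -0.06 to 0.17), and their libraries overlapped.

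The subunits of the complexes BCDX2 (RAD51B, RAD51C, RAD51D and XRCC2) and CX3 (RAD51C and XRCC3), together with the RAD54 motors, had the lowest median of the 8 role groups, at -0.47 on the log2 scale. Of these 7 genes 1 was higher and 5 were lower. RAD51B (ENSG00000182185, chromosome 14, 67819779 to 68730218, plus strand) had 609, 639 and 625 counts in siControl and 141, 143 and 156 in siSFPQ. The siSFPQ values varied little among themselves and the largest of them was far below the smallest siControl value, a log2 fold change of -2.09 (SE 0.098, adjusted p = 1.08e-18) or a fall to 0.234 of the siControl level. RAD51C, the subunit shared by both complexes, rose: it had 3434, 3678 and 3697 counts in siControl and 4662, 4743 and 5102 in siSFPQ (log2 fold change 0.42, SE 0.043, adjusted p = 3.99e-10). Its conditions did not overlap, so the RAD51B and RAD51C partners of BCDX2 moved apart.

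XRCC2 had 641, 730 and 629 counts in siControl and 512, 506 and 408 in siSFPQ (log2 fold change -0.49, SE 0.090, adjusted p = 2.55e-05). Replicate 3 was the lowest of its siSFPQ libraries, and all 3 lay under the siControl libraries. RAD51D, which links XRCC2 to RAD51C, was lower without overlap (log2 fold change -0.24, SE 0.064, adjusted p = 0.00231). XRCC3 had a log2 fold change of -0.18 (95% interval -0.33 to -0.02, adjusted p = 0.0542) and did not pass. RAD54L, the motor that drives strand exchange (ENSG00000085999, chromosome 1, 46246461 to 46278480, plus strand), had 981, 996 and 992 counts in siControl and 551, 626 and 614 in siSFPQ. The siControl values were nearly equal and the siSFPQ values well below them, a log2 fold change of -0.73 (SE 0.069, adjusted p = 6.1e-11). Its relative RAD54B, a low-count gene with 146 to 171 counts in siControl and 102 to 127 in siSFPQ, was lower by a log2 fold change of -0.47 (SE 0.15, adjusted p = 0.00837).

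In the Fanconi core complex and its E2 enzyme, 2 of 8 genes were lower and 6 did not pass the test. None was higher with edgeR, also at an unadjusted p under 0.05 (0 genes), or with DESeq2 (0 genes). FANCC, an adaptor subunit (ENSG00000158169, chromosome 9, 95099054 to 95426796, minus strand), had 1962, 2135 and 2010 counts in siControl and 572, 647 and 584 in siSFPQ. The conditions were far apart, with a log2 fold change of -1.76 (SE 0.060, adjusted p = 1.69e-22), so that it fell by 70.6%. FANCL, the catalytic ligase subunit (ENSG00000115392, chromosome 2, 58159243 to 58241410, minus strand), had 1314, 1431 and 1398 counts in siControl and 855, 873 and 814 in siSFPQ (log2 fold change -0.71, SE 0.061, adjusted p = 1.01e-11). All siSFPQ libraries of FANCL lay below all siControl libraries. Among the other subunits the log2 fold changes were -0.05 for FANCA, -0.07 for FANCG and 0.02 for FANCF. FANCE, the subunit that binds FANCC, had a 95% interval from -0.13 to 0.12, so that a change as large as that of FANCC or FANCL lay outside it. FANCB, which forms a subcomplex with FANCL, had a log2 fold change of -0.24 with a wide 95% interval from -0.45 to -0.02 (adjusted p = 0.0701). UBE2T, the E2 enzyme, had a log2 fold change of 0.08 (95% interval -0.01 to 0.18). Leaving out 1 library at a time gave -0.366 to -0.158 for FANCB and 0.028 to 0.129 for UBE2T.

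Of the 2 subunits of the clamp, FANCI was slightly lower and FANCD2 did not pass the test. FANCI had 7823, 7791 and 7859 counts in siControl and 7070, 7382 and 7228 in siSFPQ, where it fell by 7.93% (log2 fold change -0.12, SE 0.036, adjusted p = 0.0075), a call lost with scaling by library size alone (-0.06). The siControl libraries of FANCI agreed closely and lay above all siSFPQ libraries. FANCD2 had 3484, 3429 and 3327 counts in siControl and 3541, 3625 and 3586 in siSFPQ, which do not overlap, and a log2 fold change of 0.07 (95% interval -0.02 to 0.15).

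Of the 7 genes of end resection and the MRE11-RAD50-NBN complex 4 were lower, with a median of -0.19 over the group. With edgeR 0 were higher, also at an unadjusted p under 0.05, and with DESeq2 0. DNA2, a nuclease and helicase of long-range resection, had 2336, 2527 and 2564 counts in siControl and 1763, 1904 and 1758 in siSFPQ (log2 fold change -0.46, SE 0.049, adjusted p = 1.56e-09). EXO1, the exonuclease that works beside it, had 2719, 2605 and 2633 counts in siControl and 1971, 2138 and 2059 in siSFPQ (log2 fold change -0.37, SE 0.045, adjusted p = 1.92e-08). RBBP8, which encodes the resection starter CtIP, had 4061, 3794 and 3970 counts in siControl and 2819, 3268 and 3064 in siSFPQ (log2 fold change -0.38, SE 0.044, adjusted p = 8.47e-09). In these 3 genes each siSFPQ library lay below each siControl library. MRE11, the nuclease of the MRE11-RAD50-NBN complex, was lower by 12.5% (adjusted p = 0.00325), although its lowest siControl and highest siSFPQ libraries overlapped and the call was lost without siSFPQ replicate 3 (log2 fold change -0.14). NBN had a log2 fold change of -0.07 (95% interval -0.15 to 0.02), and WRN, a RecQ helicase, of -0.07 (95% interval -0.18 to 0.04). Leaving out 1 library at a time gave -0.109 to -0.035 for NBN and -0.144 to -0.012 for WRN. RAD50 had between 104 and 147 counts in a library and a log2 fold change of -0.19 with a 95% interval from -0.50 to 0.13, wide enough to hold a change as large as that of DNA2.

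In the checkpoint group the ATR kinase and its partner ATRIP rose and the ATR activator TOPBP1 and the ATR target CHEK1 fell. ATR (ENSG00000175054, chromosome 3, 142449007 to 142578733, minus strand) had 1707, 1881 and 1771 counts in siControl and 2976, 3038 and 2999 in siSFPQ. This was the largest rise in the gene set, at a log2 fold change of 0.75 (SE 0.047, adjusted p = 3.36e-15) or 1.68 times the siControl level, with no overlap. ATRIP (ENSG00000164053, chromosome 3, 48446710 to 48467645, plus strand) had 602, 643 and 593 counts in siControl and 818, 798 and 921 in siSFPQ (log2 fold change 0.46, SE 0.074, adjusted p = 3.82e-06). The siSFPQ libraries of ATRIP were more spread than those of ATR but all lay above siControl. TOPBP1 had 8235, 8802 and 8222 counts in siControl and 6768, 7545 and 7161 in siSFPQ (log2 fold change -0.24, SE 0.039, adjusted p = 3.98e-06), all siSFPQ libraries lying lower. CHEK1, the effector kinase below ATR, was lower in every siSFPQ library (log2 fold change -0.22, SE 0.046, adjusted p = 0.000184). CLSPN, which encodes the CHEK1 adaptor claspin, had a log2 fold change of -0.02 (95% interval -0.09 to 0.06). ATM had 0.08 (95% interval -0.01 to 0.18) and its effector kinase CHEK2 had -0.03 (95% interval -0.14 to 0.08). Without 1 library at a time ATM ranged from 0.021 to 0.146.

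Among the genes of chromatin signalling at breaks, 3 of 4 were higher, by small amounts. MDC1, the scaffold that binds phosphorylated H2AX, had 5518, 5595 and 5100 counts in siControl and 6376, 6731 and 6323 in siSFPQ (log2 fold change 0.26, SE 0.041, adjusted p = 2.89e-06). RNF168, a ubiquitin ligase for histone H2A, had 2294, 2293 and 2290 counts in siControl and 2515, 2623 and 2455 in siSFPQ (log2 fold change 0.14, SE 0.045, adjusted p = 0.0126). RNF8, the ligase that acts before RNF168, went the other way, with 1885, 2016 and 2027 counts in siControl and 1620, 1789 and 1816 in siSFPQ (log2 fold change -0.19, SE 0.050, adjusted p = 0.00254). The conditions did not overlap in any of the 3. TP53BP1, a reader of the RNF168 mark that restrains resection, had 4632, 5142 and 4813 counts in siControl and 5071, 5738 and 5324 in siSFPQ, its normalized counts not overlapping (log2 fold change 0.14, SE 0.043, adjusted p = 0.00719). The RNF168 call was lost without siSFPQ replicate 2 (log2 fold change 0.11), and the TP53BP1 call without siControl replicate 1 (0.11) or siSFPQ replicate 2 (0.09).

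Of the 3 RPA subunits 1 was lower. RPA1, the largest subunit, had 6249, 6559 and 6674 counts in siControl and 5595, 6078 and 6229 in siSFPQ, and its normalized counts did not overlap. Its log2 fold change was -0.13 (SE 0.039, adjusted p = 0.00815), and the call was lost with scaling by library size alone (-0.06) and without siSFPQ replicate 1 (-0.09). RPA2 and RPA3 had log2 fold changes of -0.09 (95% interval -0.18 to -0.01, adjusted p = 0.0729) and -0.08 (95% interval -0.17 to 0.00, adjusted p = 0.101) and did not pass. On a scale per length (counts per kilobase of exon, scaled to 1000000 in each library), RPA2 had the highest siControl level of the gene set at 140 ± 2.71 and RPA1 had 102 ± 2.90 (mean ± SD, n = 3). On the same scale ATR had 5.66 ± 0.296 in siControl and 9.33 ± 0.104 in siSFPQ, still below ATM at 11.8 ± 0.857 in siSFPQ. RAD51B went from 7.21 ± 0.188 to 1.66 ± 0.0753. These levels divide by the exon length joined over all annotated transcripts and so depend on the annotation.

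The change was then set against gene span, the length from a gene's start to its end with introns. Across the 43 members Spearman's rho of log2 fold change with span was -0.25 and Pearson's r with log10 span was -0.46. Over the 12961 protein-coding genes rho was -0.30 and r was -0.36. These correlations are across genes of the same 6 libraries, and genes are not independent replicates. Without RAD51B and FANCC, an alternative chosen after their values were seen, the members gave a rho of -0.14 and an r of -0.11 (n = 41). With exon length in place of span, rho was 0.12 in the members and -0.14 in the protein-coding genes.

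By class of span, the 17 members of up to 50 kb included 4 higher and 5 lower, with a median of -0.05. Protein-coding genes of that span had a median of 0.05, with 36.9% higher and 26.2% lower. Of the 15 members between 50 and 100 kb, 0 were higher with edgeR (0 at an unadjusted p under 0.05 and 0 with DESeq2) and 8 lower (median -0.13), where genes of that span were 31.2% higher and 38.1% lower (median -0.03). The 8 members between 100 and 200 kb, which are ATM, ATR, BRCA1, BRIP1, FANCB, RAD54B, TP53BP1 and WRN, included 3 higher and 2 lower and had a median of 0.01, where other such genes were 19.6% higher and 54.8% lower with a median of -0.19. All 3 members over 200 kb were lower, namely RAD51B (910 kb), FANCC (328 kb) and RBBP8 (228 kb), and 77.6% of protein-coding genes of that span were lower, with a median of -0.82. The span of a gene runs over all its annotated transcripts, and the MANE Select transcript alone spans 658 kb in RAD51B, 219 kb in FANCC and 93.2 kb in RBBP8. It spans 81.1 kb in BRCA1, 90.1 kb in TP53BP1 and 29.7 kb in FANCB, which leave the class of 100 to 200 kb by this measure, as RBBP8 leaves that over 200 kb. In the class of 50 to 100 kb there were then 2 higher (BRCA1 and TP53BP1) and 8 lower of 17 members, in place of 0 and 8 of 15. The lower members are not the same in both counts, since CHEK1 (32.0 kb) left this class and RBBP8 entered it. Protein-coding genes with a MANE Select span of 50 to 100 kb were 29.2% higher and 41.1% lower, with a median of -0.06. The 5 members that stay between 100 and 200 kb were then 1 higher (ATR) and 2 lower (BRIP1 and RAD54B), with a median of -0.07, where protein-coding genes were 16.7% higher and 59.3% lower with a median of -0.25. With MANE Select spans, the members' rho was -0.23.

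Each member was also set against the median of the protein-coding genes in its decile of span. RAD51B lay 1.36 and FANCC 1.03 log2 units below the median of -0.73 in the longest decile, which runs from 180 to 2300 kb; genes of closer span were not compared. BRIP1 lay 0.47 above that same median. RBBP8 lay 0.36 above it, but with MANE Select spans, where it falls among genes of 91.5 to 158 kb, it lay below their median, by a difference of -0.20. FANCB turned likewise, from 0.50 above to a difference of -0.25. RAD54L lay below the median of its decile by 0.78, FANCL by 0.65 and XRCC2 by 0.53 log2 units, and these genes span 32.0, 82.2 and 31.4 kb. ATR, at 130 kb, lay 0.94 log2 units above the median of its decile, which was -0.19, and BRCA1 (0.36) and TP53BP1 (0.33) also lay above that median. The spread within a decile was not computed. With MANE Select spans these 2 genes fall among genes of 59.7 to 91.4 kb and lay 0.24 and 0.21 above their median. In all, 16 members lay above and 26 below the median of their decile, and 21 members lay within 0.2 of it. CLSPN, at a rounded difference of -0.0, was counted neither as above nor as below.

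**Figure D2:**
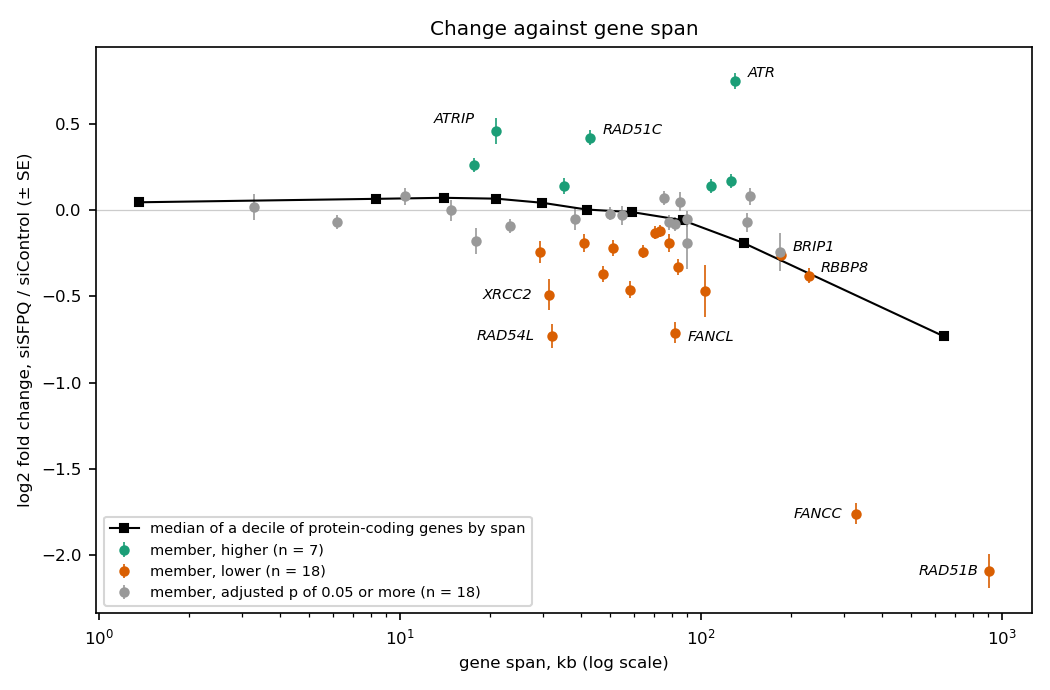
The horizontal axis is gene span in kb on a log scale and the vertical axis the log2 fold change of siSFPQ against siControl, with SE bars. Circles are the 43 members (green higher, orange lower, grey neither) and black squares the medians of protein-coding genes in deciles of span, which go from 0.046 in the shortest to -0.732 in the longest. RAD51B and FANCC lie below the median of the longest decile, RAD54L, FANCL and XRCC2 lie low at short or middle spans, and ATR lies highest.

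Ratios of normalized counts between 17 pairs of partners, each computed within a library, set subunits of 1 assembly beside each other. With 3 libraries against 3 the exact two-sided permutation test cannot give a p below 0.1, which is 0.142 after adjustment over the 17 pairs, so no pair can pass. The pairs share genes, such as RAD51C and ATR, and are not independent of each other. In 12 pairs the ratios did not overlap between conditions. No such share was computed for other gene pairs, and 72.8% of the protein-coding genes did not overlap when taken singly. The log2 ratio of RAD51B to RAD51C was -2.50, -2.53 and -2.56 in siControl and -5.05, -5.05 and -5.03 in siSFPQ, a difference of -2.52 that was far beyond the spread of either condition. FANCC to FANCE went from 0.81 ± 0.060 to -0.96 ± 0.112 (mean ± SD, n = 3), so that FANCC had the larger count in siControl and FANCE in siSFPQ. ATR to TOPBP1 differed by 0.99, FANCL to UBE2T by -0.79, RAD51C to XRCC3 by 0.60 and BRCA1 to BARD1 by 0.50 log2 units. ATR to ATRIP differed by 0.29, less than any of these. For MRE11 to RAD50 (-0.01), FANCA to FANCG (0.02), RPA1 to RPA2 (-0.04), RPA1 to RPA3 (-0.04) and BRCA2 to PALB2 (0.11) the conditions overlapped.

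**Figure D3:**
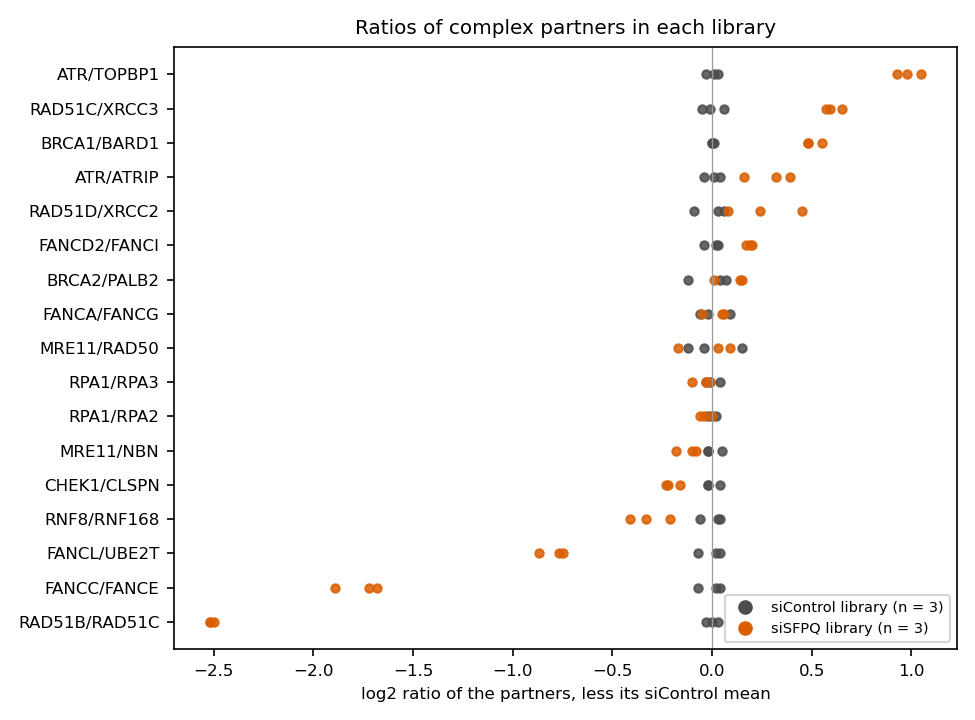
The horizontal axis is the log2 ratio of the normalized counts of 2 partner genes less the mean of that ratio over siControl, and each point is 1 library (grey siControl, orange siSFPQ). RAD51B/RAD51C and FANCC/FANCE shift by -2.52 and -1.76 and ATR/TOPBP1 by 0.99, while the points of both conditions overlap in 5 of the 17 pairs.

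Whether reads were counted by strand, and how reads that fall on 2 genes were handled, is not given in the sources used here. Counts of members that share exon bases with another gene are thus uncertain. For a partner on the same strand the strand setting would not settle this. Of the 43 members 33 share some exon bases with another gene, and 5 share over 25% of their exon length with 1 gene, a limit set after the values were seen. RAD50 shares 76.9% with the annotated gene ENSG00000283782 on the same strand, which had 0 counts in all libraries. ATRIP shares 26.7% with TREX1, also on the same strand and at 0 in all libraries. A count of 0 in the partner does not show that no reads fell on the shared bases. The low counts of RAD50 and RAD54B are open to the same doubt and may not give their expression. RAD54B shares 66.0% with FSBP on the same strand, and FSBP had 187, 205 and 207 counts in siControl and 542, 524 and 514 in siSFPQ, the opposite direction to RAD54B. XRCC3 shares 76.7% with KLC1 (log2 fold change 0.24) and TP53BP1 28.8% with TUBGCP4 (0.14), both on the opposite strand. Without these 5 members, 5 were higher and 17 lower of 38. ATR, with the largest rise, shares 7.52% with the pseudogene EIF2AK1P1, at 0 in all libraries. FANCC shares 1.77% of its exon length at most with 1 gene and FANCL 1.51% with VRK2, which was higher in siSFPQ (log2 fold change 0.24). RAD54L shares 19.9% with LRRC41 on the opposite strand, whose log2 fold change was -0.01. RAD51B shares 7.49% with the antisense RNA ENSG00000287385, which had 36, 28 and 27 counts in siControl and 0, 3 and 0 in siSFPQ.

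Other genes of the same pathways were taken from 3 further lists, of which 72 genes were tested, 15 being higher and 33 lower. Of the protein-coding genes with a mean of at least 1 CPM, 31.4% were higher and 36.5% lower. Among 27 other homologous recombination genes, 5 were higher and 12 lower (18.5% and 44.4%, median -0.12). RAD51AP1 had 2832, 2724 and 2974 counts in siControl and 2018, 2193 and 2083 in siSFPQ, every siSFPQ library lying lower (log2 fold change -0.44, SE 0.046, adjusted p = 7.9e-10). HROB, which loads the MCM8-MCM9 helicase, and FIGNL1, an AAA ATPase, rose by 0.52 and 0.51 log2 units, and RAD52 rose by 0.29. Of 17 other Fanconi pathway genes, 4 were higher and 7 lower (23.5% and 41.2%, median -0.04). The largest falls there were CENPS (-0.56, with 85 to 102 counts in siControl and 56 to 69 in siSFPQ, a call lost without siControl replicate 1 at -0.47 or siSFPQ replicate 1 at -0.56 or 3 at -0.47), the crosslink nuclease DCLRE1A (-0.50) and FAAP24 (-0.46), and REV1, a translesion polymerase, rose by 0.22. CENPS shares 1136 bases of its 1.75 kb of exon with CENPS-CORT on the same strand, so its counts are uncertain as well. DCLRE1A shares 1492 bases of its 4.58 kb with ENSG00000288933 on the opposite strand.

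Of 28 other checkpoint and break-signalling genes, 6 were higher and 14 lower (median -0.12). BABAM2, which spans 449 kb and encodes a scaffold of the BRCA1-A complex, had 2354, 2202 and 2317 counts in siControl and 383, 461 and 412 in siSFPQ (log2 fold change -2.46, SE 0.063, adjusted p = 6.71e-26). ABRAXAS1, the BRCA1-binding subunit of the same complex, had 664, 640 and 650 counts in siControl and 1022, 1067 and 996 in siSFPQ (log2 fold change 0.65, SE 0.067, adjusted p = 5.15e-10). Neither gene overlapped between conditions, and they moved in opposite directions, as BRCA1 and BARD1 did. ABRAXAS1 shares 1956 bases of its 7.7 kb of exon with MRPS18C on the opposite strand, so its counts depend on the strand setting. Of the shieldin subunits, which act below TP53BP1 against resection, SHLD2 had 2235, 2294 and 2265 counts in siControl and 727, 855 and 803 in siSFPQ (log2 fold change -1.52, SE 0.055, adjusted p = 1.16e-21). SHLD1 had 140, 108 and 108 counts in siControl and 62, 56 and 58 in siSFPQ (log2 fold change -1.02, SE 0.18, adjusted p = 1.97e-05). Both were thus lower in every siSFPQ library. SHLD3, a further shieldin subunit, had 285, 303 and 283 counts in siControl and 228, 253 and 287 in siSFPQ (log2 fold change -0.19, SE 0.11, adjusted p = 0.163) and did not pass.

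Cell cycle genes moved beside the repair genes. Among G1/S genes 6.25% were higher and 68.8% lower, and among G2/M genes 0.0% and 83.3%. The protein-coding genes with a mean of at least 1 CPM were 31.4% higher and 36.5% lower. Of 32 G1/S genes 2 were higher and 22 lower, with a median log2 ratio to siControl between -0.209 and -0.175 in the siSFPQ libraries. Their summed level went from 4380 to 4510 CPM in siControl to 3740 to 3820 CPM in siSFPQ, and the most abundant was NASP. RRM2, a subunit of ribonucleotide reductase, had 22432, 22164 and 23732 counts in siControl and 10172, 11036 and 10918 in siSFPQ (log2 fold change -1.09, adjusted p = 1.39e-22). Of 30 G2/M genes 0 were higher and 25 lower with edgeR (1 and 25 at an unadjusted p under 0.05, 0 and 25 with DESeq2), with a summed level of 6980 to 7220 CPM in siControl and 6300 to 6520 CPM in siSFPQ, TOP2A being the most abundant. The proliferation marker MKI67 had a log2 fold change of -0.43 (SE 0.052, adjusted p = 1.75e-08). The part of cell cycle position in the changes of the repair genes was not tested, and in bulk RNA fewer cells in a phase and less RNA per cell cannot be told apart.

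As to cell identity, RUNX2, a transcription factor of the osteoblast lineage, had 2541 to 2681 counts in siControl and 2690 to 2872 in siSFPQ, and COL1A1 and SPARC were abundant in every library. The later osteoblast markers SP7, IBSP and BGLAP had at most 6 counts in a library, so these defining markers were near 0. BGLAP had 0, 0 and 1 counts in siControl and 5, 6 and 6 in siSFPQ and was called higher (adjusted p = 0.0199). Of the 10 osteoblast markers 4 were lower in siSFPQ, among them SPP1 (log2 fold change -1.33), COL1A1 (-0.35) and SPARC (-0.17), and the list summed to between 5020 and 5260 CPM in siControl and between 4410 and 4480 CPM in siSFPQ, COL1A1 being the most abundant. Of 6 epithelial markers 4 were higher in siSFPQ (KRT8, KRT18, CLDN4 and CDH1), and their summed level went from between 329 and 343 CPM to between 776 and 843 CPM, KRT8 being the most abundant. EPCAM and ESRP1 of that list did not pass the test. Of 4 endothelial markers VWF and CDH5 were higher, the list summing to between 4.42 and 5.79 CPM in siControl and between 7.03 and 7.64 CPM in siSFPQ. The blood cell markers, 6 genes of leukocytes and red cells, summed to under 1 CPM in each library, with CD3E, LYZ and HBB at 0 to 5 counts. PTPRC, their most abundant gene, had 26, 30 and 39 counts in siControl and 12, 14 and 5 in siSFPQ (log2 fold change -1.61, SE 0.41, adjusted p = 0.00147). The part of the osteoblast, epithelial, endothelial and blood cell markers in the changes of the repair genes was not tested.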

How the data were processed

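RNA sequencing was carried out on 3 siControl and 3 siSFPQ libraries, and the values are the counts of reads per Ensembl gene that the authors made with STAR (version 2.7.9a) on GRCh38 after FastQC and deposited without normalization. The strand setting is not given in the sources used here. Counts were analysed with edgeR 4.0.16 in R 4.3.3: TMM scaling, genes with at least 10 counts in total, the quasi-likelihood fit and test on condition, and Benjamini-Hochberg adjustment over 29022 genes. Standard errors and 95% intervals come from the same fit, and normalized counts are counts divided by effective library size. Genes were named, placed and measured with GENCODE release 44, which holds 60463 of the 60664 identifiers; promoters were read from GRCh38. Partner ratios were compared with an exact permutation test.

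In each role group, at most 3 members called without overlap between conditions are given by library, the largest changes being taken, with any member past 1.5; from the other lists the 3 largest rises and 3 largest falls with a mean of at least 1 CPM were eligible. RAD51C, RNF168, FANCD2, SHLD3 and PTPRC are given by library as well, chosen after their values were seen. Some genes of the further lists are counted in their list and not reported by name here. The members, lists and tests were chosen with earlier results of these data known. Alternatives were the count filter, scaling, DESeq2 1.42.0, a replicate block, protein-coding genes only, other thresholds and lengths, and each library left out. The tests were tried on simulated data. Replicates are described as biological; those of a condition differed by 4.07 to 5.96 times the variance that sampling noise gives.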

Additional observations from a re-analysis of the deposited data

How the results depend on the processing

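Over the alternatives tried, 5 to 10 members were higher and 16 to 22 lower, and RAD51B and FANCC were past -1.5 and no member past 1.5 under each of them. Leaving out 1 library at a time gave 5 to 9 members higher and 17 to 22 lower, and a median of -0.14 to -0.07 for the members' log2 fold change. Library size alone in place of TMM moved the median of all genes by 0.063 and that of the members to -0.03, and gave 8 lower among the other checkpoint genes, 2 lower among the end joining genes and 2 higher among the G2/M genes. It also turned the sign of PALB2 (0.012), FANCA (0.014), FANCE (0.06), CHEK2 (0.029) and CLSPN (0.048), none of which passed the test. FANCE was at 0.001 with filterByExpr and 0.007 with protein-coding genes only. Without 1 library the sign also turned in PALB2 (-0.112 to 0.007), BRCA2 (-0.003 to 0.154), FANCE (-0.051 to 0.042), FANCF (-0.021 to 0.095) and CLSPN (-0.046 to 0.005). DESeq2 left 1 G1/S gene higher. The cause of these shifts was not tested. The rho with span was 0.12 with exon length and -0.14 without RAD51B and FANCC. Over a span limit of 50 kb, 3 of 26 members were higher and 13 lower (23.0% and 52.2% of protein-coding genes). Over 30 kb it was 5 and 17 of 34 (26.0% and 46.4%), and over 100 kb 3 and 5 of 11 (16.1% and 63.9%), since the limits divide the members differently. Calls of 5 members (FANCI, MRE11, RNF168, RPA1 and TP53BP1) were lost under at least 1 alternative, and those of 9 others (ATM, BRCA2, FANCB, FANCD2, NBN, RPA2, UBE2T, WRN and XRCC3) were gained under at least 1.

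Same-numbered replicates did not deviate together over all genes (correlations of -0.0251, 0.0697 and 0.0355 over 15641 genes). The labels do not say whether equal numbers pair the samples, and correlations over all genes cannot exclude pairing for some genes. With the replicate block, 8 members were higher and 21 lower, and 1 G2/M gene was higher. The floor of 3 counts lies far under every member's level, and RAD50 and RAD54B, with under 200 counts in a library, have the widest intervals.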

Other observations

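End joining, the other main route of break repair, was measured in 14 further genes, of which 5 were higher and 4 lower in siSFPQ, with a median log2 fold change of 0.10. These shares of 35.7% and 28.6% stand beside 31.4% and 36.5% of the protein-coding genes with a mean of at least 1 CPM. XRCC4, the partner of DNA ligase IV, spans 276 kb and had 1045, 1006 and 1118 counts in siControl and 367, 378 and 366 in siSFPQ (log2 fold change -1.52, SE 0.076, adjusted p = 6.09e-18). Its binding partner NHEJ1 went the other way, with 340, 392 and 366 counts in siControl and 630, 673 and 589 in siSFPQ (log2 fold change 0.78, SE 0.086, adjusted p = 2.58e-09). The ligase itself, LIG4, had a log2 fold change of -0.34 (SE 0.062), and POLM and PAXX rose by 0.39 and 0.28. XRCC6, which encodes the Ku70 end-binding subunit, was the most abundant gene of the list at 838 CPM.

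Among the replication genes of the G1/S list, POLA1, the catalytic subunit of DNA polymerase alpha, spans 303 kb and had 2668, 2574 and 2624 counts in siControl and 689, 784 and 719 in siSFPQ (log2 fold change -1.85, SE 0.054, adjusted p = 2.45e-24). GINS1, a subunit of the replicative helicase that spans 61.7 kb, had a log2 fold change of -1.09 (SE 0.048, adjusted p = 1.53e-19). CDT1, a licensing factor, rose by 0.18 and RFC4 by 0.11 log2 units, and the RFC4 call was lost with DESeq2, with no count filter and without siControl replicate 1 (0.11) or 2 (0.07) or siSFPQ replicate 2 (0.08) or 3 (0.11).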
